A study of Mus musculus with 5 samples.

Results

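The genes described here are the enzymes of glycolysis with their glucose and lactate transporters, the subunits of hypoxia-inducible factor (HIF), the prolyl hydroxylases that control it, and a group of HIF targets outside glycolysis. They were chosen by name, with earlier results of these data known, and 39 genes were listed. A gene was measured where a probe set of the array was annotated to that gene alone. The brightest such probe set stood for the gene. Of the 39, 34 were measured, out of 12394 genes on the array. The other 5 (Gpi1, Eno1, Pfkfb4, Bnip3l and Ankrd37) had no probe set named for 1 gene and were not analysed here. Gapdh was represented by an array control probe set.

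The RNA came from ID8, an established mouse ovarian surface epithelial cancer line that grows in the peritoneum and forms ascites, and was measured on an Affymetrix mouse expression array. The compared groups were ID8 cells cultured with 10% ascites fluid taken from mice bearing ID8 tumours, for 7 days according to the series design (2 arrays, ascites replicates 2 and 3), and parental ID8 cells cultured with 10% fetal bovine serum (FBS; 3 arrays, FBS replicates 1, 2 and 3). Both groups were kept in DMEM, a standard culture medium, as bulk cultures of 1 cell line, and whether the FBS culture lasted as long is not settled by the wording. Nothing in the labels ties a replicate to a separate culture, so the p-values cover array-to-array spread alone, and this may be technical.

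Glycolysis turns glucose into pyruvate in the cytosol, and lactate dehydrogenase then reduces pyruvate to lactate, which leaves the cell through monocarboxylate transporters. Many of these genes are targets of HIF, a transcription factor made of an oxygen-regulated alpha subunit and a stable beta subunit. When oxygen is present, prolyl hydroxylases mark the alpha subunit for destruction through the VHL ubiquitin ligase, so HIF activity is set mainly by protein stability and not by the transcript level of its subunits. Genes that this pathway induces include some of its own hydroxylases, which makes a feedback loop.

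Signals are the deposited log2 values, on which a difference of 1 is a doubling, and a change is the ascites mean less the FBS mean. Each carries the standard error (SE) of the limma fit, with p-values adjusted over all 12394 genes. A gene was called at an adjusted p below 0.05. Across all genes 654 were called (5.28%), of which 333 rose (2.69%) and 321 fell (2.59%). FBS replicates 1 and 2 were nearly alike, with an SD of differences of 0.117 over all genes and 0.0597 over the 34 members. Against either of them, FBS replicate 3 had an SD of differences of 0.427 over all genes, and of 0.671 and 0.674 over the members. The plot of changes therefore gives every member with and without that array. The text gives both where a member's call turns on it, and for some other members. Epithelial and mesothelial markers of the line were read at 10.83 to 14.63 (Krt8, Krt18, Krt19, Wt1, Msln and Upk3b), whereas Cdh1 read 5.73 to 5.80 and Krt7 5.12 to 8.08. Of these 8 markers 2 fell in ascites, Krt18 (change -1.43, adjusted p = 0.0361) and Krt19 (-0.88, adjusted p = 0.0428). Upk3b (-2.30, adjusted p = 0.160) and Krt7 (-2.00, adjusted p = 0.260) had larger changes that did not pass. Without FBS replicate 3, 5 of the 8 fell, with Upk3b (-2.95), Krt7 (-2.80) and Wt1 (-1.74) added. The part of these markers in the changes below was not tested. Of the 23 measured markers of macrophages, lymphocytes, neutrophils, red cells and endothelium 0 passed, and their mean level was 5.30 to 5.36 on ascites arrays and 5.24 to 5.29 on FBS arrays. The mean signals of these 23 genes spanned 3.42 to 7.16, and members inside that span are not shown to lie above background.

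Of the 34 members, 2 fell in ascites and 0 rose, beside 5.28% of all genes called and 2.59% that fell. They were Egln3, the oxygen-sensing prolyl hydroxylase PHD3, and Aldoc, the aldolase isoform best known from brain. Of all members, 26 were lower and 8 higher in ascites, with a median change of -0.27 where the median over all genes was 0.00. Without FBS replicate 3 the median over members was -0.16, and Slc2a1, Aldoa, Gapdh, Pgk1 and Hif1a turned from lower to higher. The ascites and FBS arrays did not overlap for 21 of the 34, against 38% of all genes.

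Egln3 read 8.41 and 7.66 on the ascites arrays, against 10.83, 10.91 and 10.72 on the FBS arrays. Both ascites arrays lay more than 2 log2 units below every FBS array, and the FBS arrays, replicate 3 included, lay close together. The signal averaged 8.04 ± 0.53 in ascites and 10.82 ± 0.10 in FBS (SD, n = 2 and 3), a 6.89-fold fall (log2 change -2.79, SE 0.24, adjusted p = 0.0204). Its other probe set gave -2.37 (SE 0.20). Without FBS replicate 3 the change was -2.84 (adjusted p = 0.0211). In RNA from whole cultures, fewer cells that express a gene and less RNA per cell cannot be told apart.

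Aldoc, which cleaves fructose 1,6-bisphosphate, read 7.34 and 7.22 on the ascites arrays, against 9.68, 9.67 and 9.28 on the FBS arrays. Here too the groups were far apart, with FBS replicate 3 a little below the other FBS arrays. The means were 7.28 ± 0.08 in ascites and 9.54 ± 0.23 in FBS (SD, n = 2 and 3), a 4.8-fold fall (log2 change -2.26, SE 0.15, adjusted p = 0.0164), and the change without FBS replicate 3 was -2.39 (adjusted p = 0.00737). The ascites signal lay just above the span of the mean signals of the markers of other cell types. On ascites replicate 2, however, the highest single marker read 7.63. A second Aldoc probe set read only 3.62 to 4.46 on all arrays, inside that span, and gave -0.44 (SE 0.22, adjusted p = 0.341), and the mean of both probe sets gave -1.35. Both calls were lost when any 1 array other than FBS replicate 3 was left out, with adjusted p up to 0.154 for Egln3 and up to 0.139 for Aldoc, as were the calls of all 654 genes. The changes themselves stayed between -3.16 and -2.41 for Egln3 and between -2.39 and -2.20 for Aldoc.

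**Figure D1:**
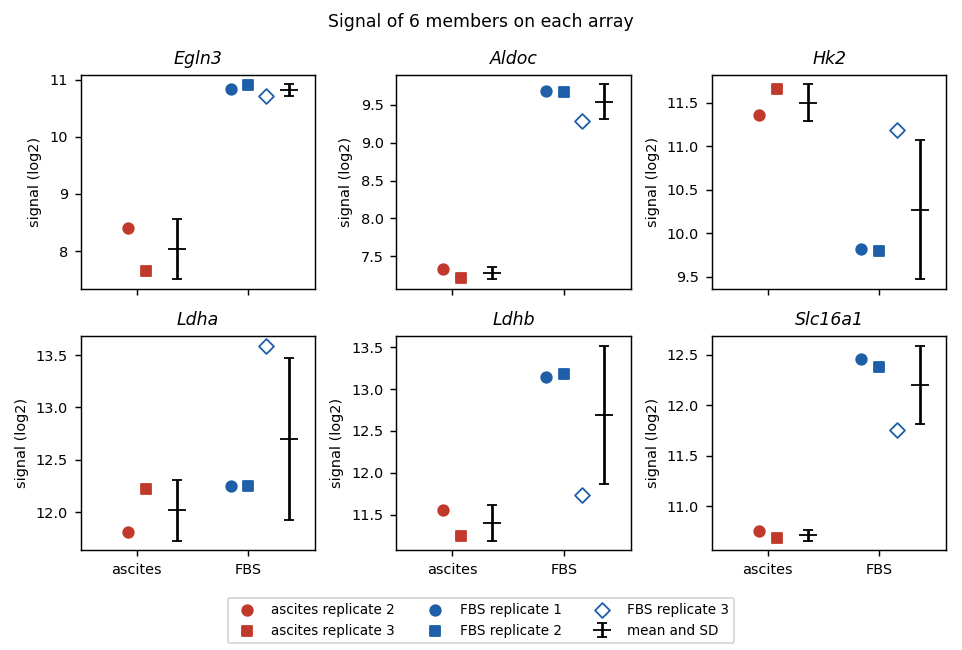
Log2 signal of 6 members on each array, ascites left and FBS right, with the group mean and SD as bars; each panel has its own vertical range. Egln3 and Aldoc separate the groups with close FBS arrays, while FBS replicate 3 (open diamond) stands apart in Hk2, Ldha, Ldhb and Slc16a1.

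HIF binds the core letters ACGTG or GCGTG. These letters were searched on both strands of promoter windows that run from 250 bases before to 50 bases after a gene's start, from RefSeq on GRCm38.p6. A palindromic CACGTG counts as 2 matches, since it holds ACGTG on each strand. Of the 34 measured members, 31 had at least 1 window, 43 windows in all. ACGTG was present in 60.5% of these 43 windows and in 19.6% of 32851 windows of all genes, and either core in 83.7% and 43.8%. The members were listed partly as known HIF targets, so these shares are a description with no test. A match is not a binding site, and a window with no match says nothing about HIF at that gene. The 4 windows printed are those of the members that fell (Egln3 and Aldoc) and of the members in which FBS replicate 3 lay farthest above the other FBS arrays (Hk2 and Ldha, below), with the core letters in capitals. The Egln3 window is chr12:54203825-54204124 on the minus strand, with 1 ACGTG match. The Aldoc window is the upstream one of 2, chr11:78322823-78323122 on the plus strand, with 1 ACGTG and 2 GCGTG matches. The downstream Aldoc window, not printed, had fewer, 0 ACGTG and 1 GCGTG. The Hk2 window is chr6:82774405-82774704 on the minus strand, with 2 ACGTG matches. The Ldha window is the upstream one of 2, chr7:46845554-46845853 on the plus strand, with 5 ACGTG and 2 GCGTG matches. The downstream Ldha window, not printed, had fewer, 0 ACGTG and 2 GCGTG. At least 3 ACGTG matches were present in 1.73% of all windows, and at least 3 matches of either core in 8.93%.
Egln3: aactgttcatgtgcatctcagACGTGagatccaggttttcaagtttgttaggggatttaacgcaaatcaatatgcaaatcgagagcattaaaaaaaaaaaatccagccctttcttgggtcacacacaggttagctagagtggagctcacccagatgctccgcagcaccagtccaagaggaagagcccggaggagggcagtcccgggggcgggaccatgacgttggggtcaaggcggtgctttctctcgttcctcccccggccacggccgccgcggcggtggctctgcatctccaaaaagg
Aldoc: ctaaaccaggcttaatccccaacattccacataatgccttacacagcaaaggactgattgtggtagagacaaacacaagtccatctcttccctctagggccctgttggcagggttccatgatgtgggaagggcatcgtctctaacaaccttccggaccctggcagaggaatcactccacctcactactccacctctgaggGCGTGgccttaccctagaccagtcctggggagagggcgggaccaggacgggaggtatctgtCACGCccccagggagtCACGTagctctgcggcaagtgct
Hk2: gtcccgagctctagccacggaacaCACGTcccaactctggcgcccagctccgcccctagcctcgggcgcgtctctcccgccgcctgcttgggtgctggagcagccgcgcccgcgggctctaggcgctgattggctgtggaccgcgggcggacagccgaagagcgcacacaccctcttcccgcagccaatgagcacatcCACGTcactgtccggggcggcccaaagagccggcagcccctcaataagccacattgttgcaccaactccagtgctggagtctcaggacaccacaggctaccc
Ldha: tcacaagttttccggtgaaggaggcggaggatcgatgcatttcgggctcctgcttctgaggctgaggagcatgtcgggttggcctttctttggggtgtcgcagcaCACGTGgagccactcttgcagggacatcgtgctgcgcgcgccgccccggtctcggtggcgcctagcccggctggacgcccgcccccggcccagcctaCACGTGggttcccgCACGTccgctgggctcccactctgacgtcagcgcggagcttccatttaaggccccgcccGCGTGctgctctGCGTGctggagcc

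The glucose transporters did not pass the test. Slc2a1, which encodes GLUT1, the main basal glucose carrier and a HIF target, read 10.46 and 10.61 in ascites, against 10.19, 10.18 and 11.37 in FBS. The ascites arrays lay between FBS replicates 1 and 2 below and FBS replicate 3 above. Its change was -0.04 (SE 0.43, 95% confidence interval -1.20 to 1.11) with all arrays and 0.35 (adjusted p = 0.0572) without FBS replicate 3. Slc2a3, the high-affinity carrier GLUT3, read 9.75 and 9.78 in ascites, against 9.75, 9.72 and 9.68 in FBS. On this probe set its change of 0.05 had a confidence interval of -0.09 to 0.19. A change of over 1.14-fold up or below 0.94-fold lay outside it. The other Slc2a3 probe sets were dimmer over all arrays, at 7.43 to 7.60, 3.86 to 4.13 and 3.47 to 3.67. All but the first of these lay inside the span of the markers of other cell types. Their changes were 0.06 to 0.08.

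Among the upper steps, from hexokinase to triose phosphate isomerase, 8 of 9 listed genes were measured. Aldoc fell, 0 rose, and the median change was -0.59. The hexokinase isoforms, which trap glucose as its phosphate, had changes of opposite sign. Hk2, the inducible form, read 11.36 and 11.65 in ascites, against 9.82, 9.79 and 11.19 in FBS. Both ascites arrays were above all FBS arrays, by a small margin over FBS replicate 3 and a wide one over the others. Its change was 1.24 (SE 0.51, adjusted p = 0.242) with all arrays, and 1.70, a 3.25-fold rise (adjusted p = 0.0125), without FBS replicate 3. Hk1, the constitutive form, read 10.70 and 10.50 in ascites, against 10.89, 10.92 and 11.51 in FBS, a change of -0.51 (SE 0.23, adjusted p = 0.287), and of -0.31 without FBS replicate 3.

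Phosphofructokinase commits sugar to glycolysis. Its muscle-type subunit gene Pfkm read 9.42 and 9.51 in ascites, against 10.22, 10.22 and 9.95 in FBS. No ascites array reached an FBS array. The change of -0.67 (SE 0.11) had an adjusted p of 0.0522, just above the threshold, and it passed without FBS replicate 3 (-0.76, adjusted p = 0.0116). The liver-type gene Pfkl read 8.60 on both ascites arrays, against 9.01, 9.03 and 10.12 in FBS (change -0.79, SE 0.40, adjusted p = 0.334). The platelet-type gene Pfkp read 9.30 and 8.94 in ascites, against 9.26, 9.26 and 10.40 in FBS (change -0.52, SE 0.43, adjusted p = 0.525). In both of these the FBS spread came from replicate 3. Without it Pfkl passed at -0.42 (adjusted p = 0.0145) and Pfkp had a difference of -0.14 (adjusted p = 0.552). A second, dimmer Pfkl probe set read 8.08 and 8.17 in ascites, against 8.17, 8.17 and 8.94 in FBS. Its change was -0.30 (adjusted p = 0.579) with all arrays, and its ascites arrays lay close to FBS replicates 1 and 2.

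Aldoa, the ubiquitous aldolase, read 13.13 and 12.99 in ascites, against 12.79, 12.80 and 13.80 in FBS. Unlike in Aldoc, the ascites arrays lay inside the FBS range. The change was -0.07 (SE 0.37) with all arrays and 0.26 (adjusted p = 0.0857) without FBS replicate 3. With all arrays, all 4 Aldoa probe sets gave changes between -0.14 and -0.02. Tpi1, which interconverts the triose phosphates, read 12.56 and 12.30 in ascites, against 13.10, 13.01 and 13.70 in FBS. The groups did not overlap, but the change of -0.84 (SE 0.25, adjusted p = 0.141) did not pass, nor did it without FBS replicate 3 (-0.62, adjusted p = 0.051).

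Of the lower steps, which yield ATP and pyruvate, 5 of 6 listed genes were measured, 0 passed, and the median change was -0.10. Without FBS replicate 3 the median was 0.03. Gapdh, which oxidises glyceraldehyde phosphate, read 14.62 and 14.61 in ascites, against 14.59, 14.57 and 14.73 in FBS, a change of -0.02 with a confidence interval of -0.21 to 0.18. Pgk1, phosphoglycerate kinase, read 13.49 and 13.54 in ascites, against 13.42, 13.46 and 13.97 in FBS (change -0.10, SE 0.20, and 0.07 without FBS replicate 3). Pgam1, phosphoglycerate mutase, read 12.18 and 12.23 in ascites, against 11.86, 11.80 and 12.69 in FBS. Its change was 0.09 (SE 0.31) with all arrays and 0.37 (adjusted p = 0.0256) without FBS replicate 3. Pkm, pyruvate kinase, read 12.98 and 12.83 in ascites, against 12.95, 13.00 and 13.81 in FBS (change -0.35, SE 0.31, and -0.07 without FBS replicate 3). In these genes the ascites arrays lay close to FBS replicates 1 and 2, or between them and replicate 3. Eno2, the neuronal enolase, was the lower-step gene with no overlap, at 6.15 and 6.48 in ascites, against 6.84, 6.94 and 7.12 in FBS (change -0.65, SE 0.14, adjusted p = 0.0817), all inside the span of the markers.

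The regulators of flux had 2 measured genes, and 0 passed. Pdk1, a HIF-induced pyruvate dehydrogenase kinase, read 7.90 and 8.01 in ascites, against 8.47, 8.51 and 9.56 in FBS. All ascites values were below all FBS values. The change was -0.89 (SE 0.39, adjusted p = 0.266), and -0.54 (adjusted p = 0.0212) without FBS replicate 3. Pfkfb3, which makes the activator of phosphofructokinase, read 6.65 and 6.45 in ascites, against 7.17, 7.15 and 6.91 in FBS (change -0.53, SE 0.12, adjusted p = 0.0846). Without FBS replicate 3 the change was -0.61 (adjusted p = 0.0329). A second, dimmer Pfkfb3 probe set gave 0.19 (adjusted p = 0.494), and the first lay at the upper end of the span of the markers.

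Lactate handling had the lowest median change of these roles, -0.98 over 4 genes, of which 0 passed with all arrays. Slc16a1, which encodes the lactate and pyruvate carrier MCT1, read 10.75 and 10.68 in ascites, against 12.46, 12.38 and 11.75 in FBS. The ascites arrays were about a full log2 unit or more below every FBS array. The change of -1.48 (SE 0.25, 2.79-fold) had an adjusted p of 0.0522, and without FBS replicate 3 it was -1.71 (adjusted p = 0.00737). Ldhb, the lactate dehydrogenase subunit of oxidative tissues, read 11.55 and 11.25 in ascites, against 13.15, 13.18 and 11.73 in FBS. FBS replicate 3 lay next to the ascites arrays and far below the other FBS arrays. The change was -1.29 (SE 0.52, adjusted p = 0.241) with all arrays, between -1.30 and -1.27 on all 4 probe sets, and -1.76, a 3.40-fold fall (adjusted p = 0.0124), without that array.

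Ldha, the HIF-induced subunit of lactate dehydrogenase, read 11.81 and 12.22 in ascites, against 12.25, 12.25 and 13.59 in FBS. FBS replicate 3 lay far above all other arrays, and ascites replicate 3 nearly met FBS replicates 1 and 2. The change was -0.68 (SE 0.50, adjusted p = 0.480) with all arrays and -0.23 (adjusted p = 0.425) without FBS replicate 3. Slc16a3, the lactate exporter MCT4, read 5.52 and 5.62 in ascites, against 5.62, 5.62 and 5.86 in FBS, inside the span of the markers of other cell types.

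**Figure D2:**
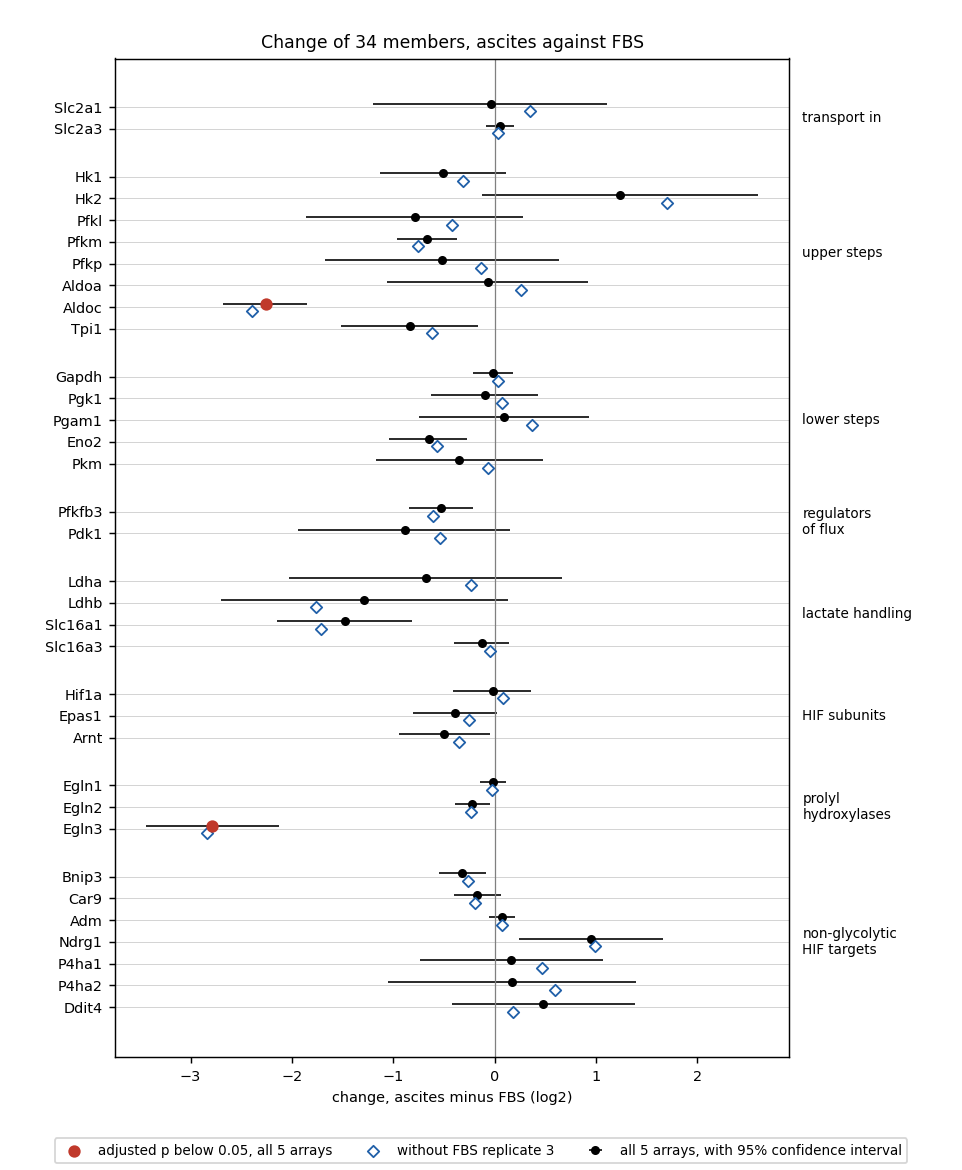
Change of each of the 34 members (log2, ascites minus FBS) with its 95% confidence interval over all 5 arrays (filled points, red where the adjusted p is below 0.05) and without FBS replicate 3 (open diamonds). Only Egln3 and Aldoc are red, and leaving out FBS replicate 3 moves Hk2 to 1.70 and Ldhb to -1.76.

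Transcripts of the HIF subunits did not pass with all arrays. Hif1a, the broadly expressed alpha subunit, read 12.56 and 12.35 in ascites, against 12.43, 12.32 and 12.69 in FBS. The groups overlapped fully, and the change of -0.02 (SE 0.14) had a confidence interval of -0.41 to 0.36, or 0.754-fold to 1.28-fold. Epas1, which encodes HIF-2 alpha, read 5.15 and 5.18 in ascites, against 5.42, 5.42 and 5.83 in FBS, inside the span of the markers. Its change was -0.39 (SE 0.15, adjusted p = 0.227) with all arrays and -0.25 (adjusted p = 0.0314) without FBS replicate 3. Arnt, the beta subunit, read 6.81 and 6.70 in ascites, against 7.10, 7.11 and 7.54 in FBS. It lay inside the span of the markers on all arrays but FBS replicate 3. Its change was -0.50 (SE 0.17, adjusted p = 0.174), and -0.35 (adjusted p = 0.0389) without FBS replicate 3, while its second probe set gave 0.13. The array measures no protein, so HIF activity itself was not measured.

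The other prolyl hydroxylases had smaller changes than Egln3 and did not pass. Egln1, which encodes PHD2, the main regulator of HIF-1 alpha in normal oxygen, read 10.28 and 10.30 in ascites, against 10.33, 10.30 and 10.30 in FBS. These values coincided, and the change of -0.02 had a confidence interval of -0.15 to 0.11. The dimmer second probe set of Egln1 read 8.68 and 8.58 in ascites, against 9.04, 9.06 and 9.51 in FBS (change -0.57, SE 0.17, adjusted p = 0.151), so its probe sets disagreed. Egln2, which encodes PHD1, read 9.74 and 9.78 in ascites, against 9.92, 10.05 and 9.96 in FBS, a small non-overlapping difference (change -0.22, SE 0.06, adjusted p = 0.132). The confidence interval of Egln3, -3.44 to -2.13, did not reach that of Egln1 or that of Egln2, -0.39 to -0.05.

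The HIF targets outside glycolysis had 7 measured genes of 9. Of these 0 passed, their median change was 0.16, and 5 of the 7 were higher in ascites. Ndrg1, a stress- and hypoxia-induced gene, read 11.08 and 11.90 in ascites, against 10.48, 10.52 and 10.63 in FBS. Both ascites arrays were higher than all FBS arrays but differed from each other by 0.82. The change was 0.95 (SE 0.26, adjusted p = 0.124), and the other 4 probe sets gave 0.87 to 1.35. P4ha1 and P4ha2 encode the catalytic subunits of collagen prolyl hydroxylases. P4ha1 read 8.80 and 8.73 in ascites, against 8.27, 8.32 and 9.22 in FBS. P4ha2 read 8.19 and 8.21 in ascites, against 7.60, 7.62 and 8.87 in FBS. On these probe sets ascites lay between FBS replicates 1 and 2 below and replicate 3 above. A second, dimmer P4ha1 probe set read 6.14 and 5.93 in ascites, above 5.68, 5.35 and 5.50 in FBS, with no higher signal on FBS replicate 3 (change 0.53, adjusted p = 0.106). Their changes were 0.16 (SE 0.34) and 0.17 (SE 0.45) with all arrays, and 0.47 (adjusted p = 0.0194) and 0.59 (adjusted p = 0.0105) without FBS replicate 3.

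Ddit4, an inhibitor of mTORC1 signalling that other stress pathways also induce, read 11.68 and 11.35 in ascites, against 11.33, 11.33 and 10.45 in FBS. FBS replicate 3 was the low array here (change 0.48, SE 0.33, adjusted p = 0.462, and 0.18 without that array). Bnip3, a mitophagy receptor, read 7.81 and 7.92 in ascites, against 8.14, 8.11 and 8.30 in FBS, a small non-overlapping difference (change -0.32, SE 0.08, adjusted p = 0.116). Car9, the tumour carbonic anhydrase used as a hypoxia marker, read 5.12 and 5.04 in ascites, against 5.17, 5.37 and 5.21 in FBS. Adm, the vasoactive peptide adrenomedullin, read 4.95 and 4.89 in ascites and 4.85 on all 3 FBS arrays. Car9 and Adm were thus inside the span of the markers on every array, as were Slc16a3, Epas1 and Eno2, 5 of the 34 members.

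**Figure D3:**
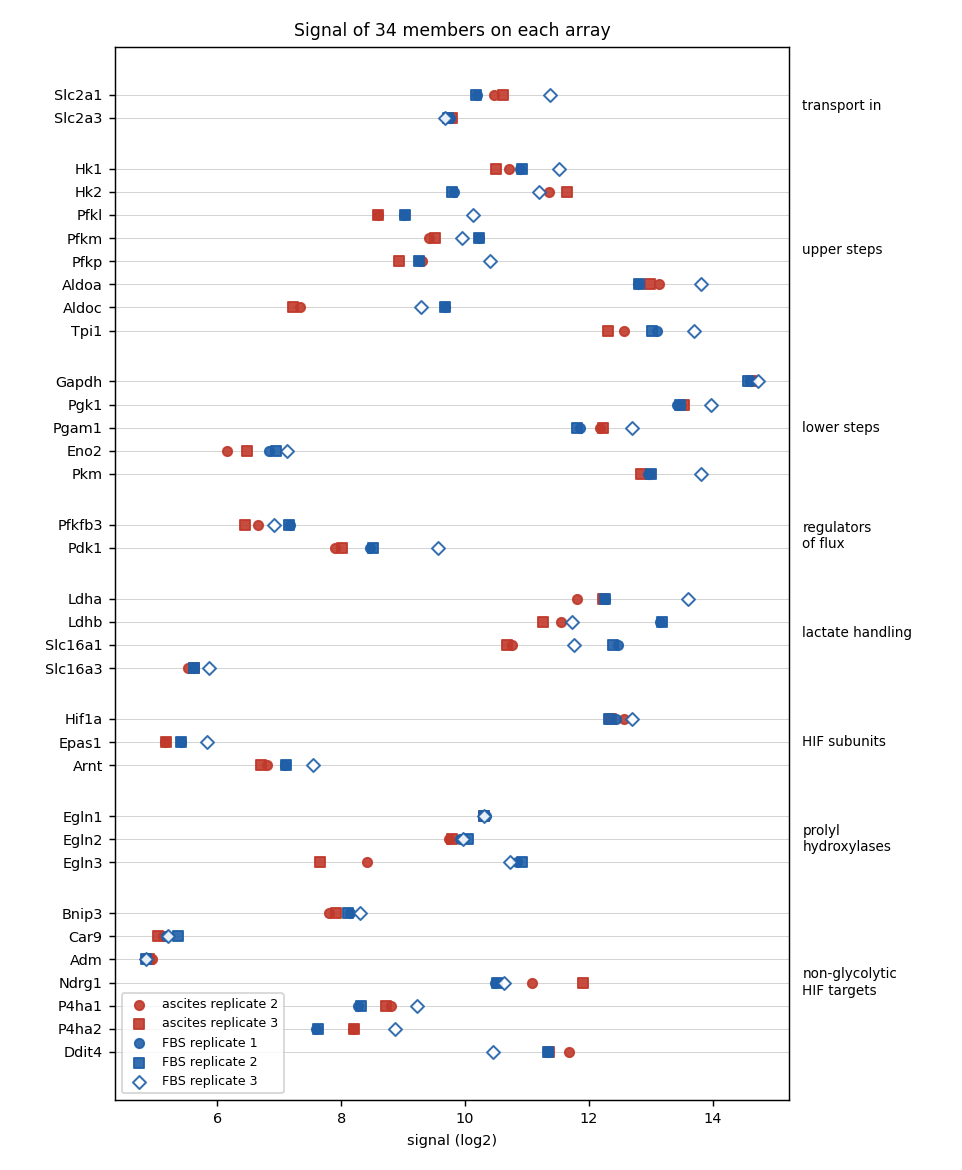
Log2 signal of the 34 members on each array, by role, with ascites arrays in red and FBS arrays in blue (FBS replicate 3 as an open diamond). The open diamond lies to the right of the other 4 arrays for 20 of the 34 members, among them all 5 measured lower-step genes.

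Arrays that share the FBS label also differed in these members. FBS replicate 3 was at least 0.5 above the mean of FBS replicates 1 and 2 in 14 of 34 members (41.2%), against 7.39% of all genes. It was at least 0.5 below that mean in 3 members (8.82%), near the 8.63% of all genes. The step of 0.5 was chosen after the values had been seen, and with 1 array on one side there is no test. FBS replicate 3 was the highest of the 5 arrays for 20 members (58.8%), against 25.6% of all genes. By role, the median difference was 0.83 over the upper steps, 0.57 over glucose transport, 0.53 over the lower steps, 0.41 over the regulators of flux and over the HIF subunits, 0.13 over the HIF targets outside glycolysis, -0.02 over the prolyl hydroxylases and -0.22 over lactate handling, beside 0.01 over all genes.

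The members that set FBS replicate 3 apart upward were Hk2 (2.61-fold over FBS replicates 1 and 2), Ldha (2.53-fold), P4ha2 (2.39-fold), Slc2a1 (2.27-fold), Pfkp (2.20-fold), Pfkl (2.14-fold), Pdk1 (2.10-fold) and Aldoa (2.01-fold). P4ha1, Pgam1, Pkm, Tpi1, Hk1 and Pgk1 followed at 1.90-fold to 1.44-fold. The 3 Slc2a1 probe sets gave differences of 1.19 to 1.33, the 4 Aldoa probe sets 1.01 to 1.07 and the 3 Tpi1 probe sets 0.63 to 0.72. Probe sets of other members disagreed, with 1.14 and 0.07 for Pfkp, 0.93 and -0.01 for P4ha1 and 1.1 and 0.77 for Pfkl, the first of each pair being the brighter one used here. Downward were Ldhb (2.70-fold lower), Ddit4 (1.84-fold lower) and Slc16a1 (1.59-fold lower). Egln3 (-0.15) and Egln1 (-0.02) differed little. On the same array the difference between the 3-prime and 5-prime control probe sets of Gapdh, a measure of RNA integrity, was 0.22, against -0.05 and 0.04 on FBS replicates 1 and 2. The same difference for Actb was 0.34, against 0.24 and 0.31, and so barely set that array apart. On it 4 of 8 markers of the line were at least 0.5 below the mean of FBS replicates 1 and 2. These were Krt7 (-2.38), Upk3b (-1.96), Msln (-1.02) and Wt1 (-0.90). The other markers of the line lay between -0.37 and -0.02. The part of these measures in the differences of the members was not tested.

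**Figure D4:**
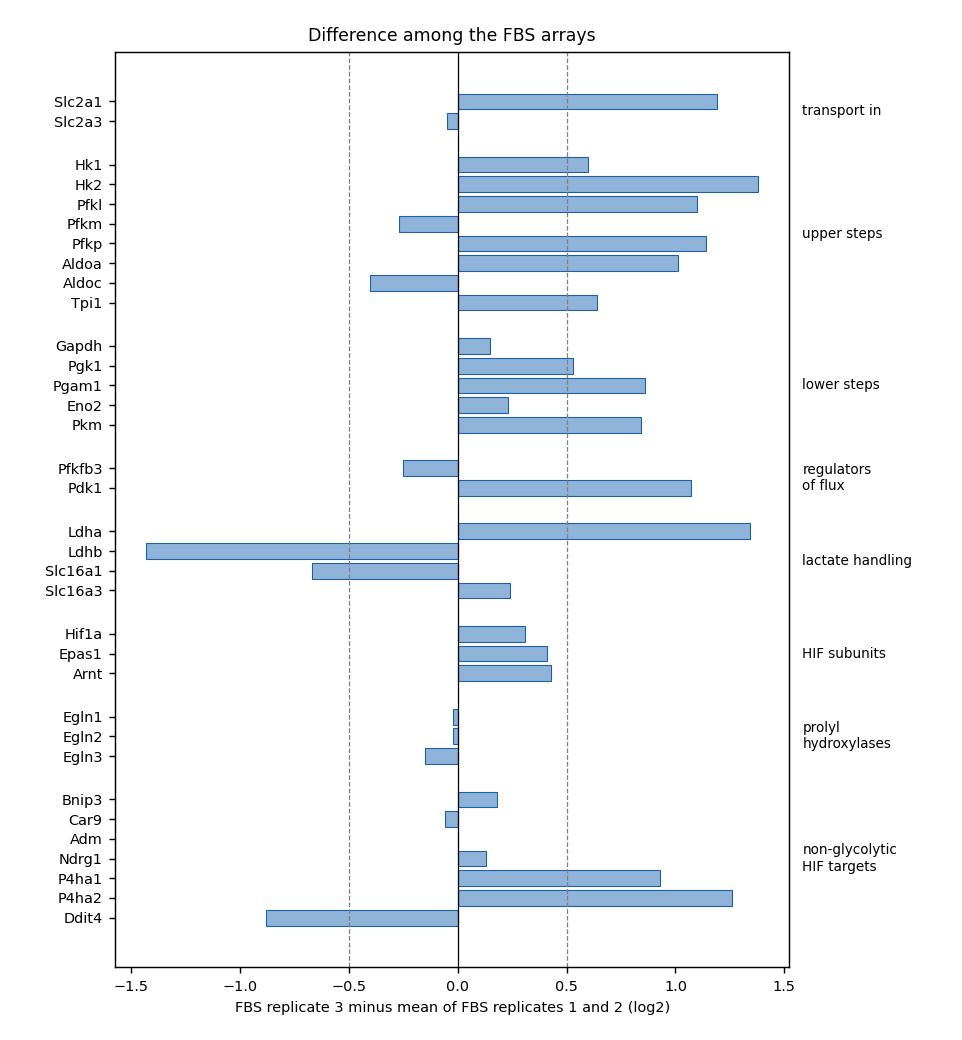
Signal of FBS replicate 3 minus the mean of FBS replicates 1 and 2 (log2) for each of the 34 members by role, with dashed lines at 0.5 above and below 0. Bars pass the upper line for 14 members and the lower line for Ldhb, Slc16a1 and Ddit4.

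Against FBS replicates 1 and 2 alone, 14 members passed, 4 up (Hk2, Pgam1, P4ha1 and P4ha2) and 10 down (Aldoc, Egln3, Slc16a1, Ldhb, Pfkm, Pfkl, Pdk1, Pfkfb3, Arnt and Epas1). In that comparison 20.1% of all genes were called, 9.17% up and 10.9% down. It rests on an FBS spread between arrays that nearly coincide, which sets its small errors. For Pfkl, Pfkfb3 and Arnt the second probe set, given above, showed little or no fall. Egln3 and Aldoc passed both with and without FBS replicate 3.

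Other genes of the pathways were counted from lists of textbook members, which were chosen with earlier results of these data known. Of 32 other glycolysis and pyruvate genes 24 were measured, 1 rose and 0 fell, with a median change of 0.05. The 1 rise is near the 2.69% of all genes that rose. Without FBS replicate 3, 3 rose (Pdk4, with Mpc1 and Pdhb, which are named after their values were seen), beside 9.17% of all genes. The gene that rose was Pdk4, a pyruvate dehydrogenase kinase induced by fasting and fatty acids, at 10.10 and 10.08 in ascites, against 8.36, 8.20 and 8.64 in FBS (3.23-fold, adjusted p = 0.0196, and 3.51-fold without FBS replicate 3). Its relative Pdk1 had a change of opposite sign, given above. Of 14 partners of HIF, such as the VHL ligase subunits, 11 were measured and 0 passed. The one with the smallest p was Cul2, the cullin of the VHL ligase (change 0.51, SE 0.15, adjusted p = 0.137).

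Of 30 other HIF-inducible genes 27 were measured, 4 rose and 0 fell, beside 2.69% and 2.59% of all genes, and the median change was -0.09. Vegfa, the angiogenic growth factor, read 10.96 and 11.29 in ascites, against 9.39, 9.11 and 9.24 in FBS (3.68-fold, adjusted p = 0.0177). Ero1a, an oxidase of the endoplasmic reticulum, read 11.46 and 11.75 in ascites, against 10.01, 10.00 and 9.98 in FBS (3.05-fold, adjusted p = 0.0158). Hilpda, a lipid droplet protein, read 9.67 and 9.58 in ascites, against 8.21, 8.19 and 8.66 in FBS (2.41-fold, adjusted p = 0.0383). Angptl4, a lipase inhibitor, read 10.57 and 10.90 in ascites, against 9.63, 9.58 and 9.66 in FBS (2.16-fold, adjusted p = 0.0245). In all 4 the groups were well apart and FBS replicate 3 was within 0.46 of the mean of the other FBS arrays. These calls and that of Pdk4 were also lost when ascites replicate 2 or 3 or FBS replicate 1 or 2 was left out, where 0 of 12394 genes passed. One further Ero1a probe set, in which FBS replicate 3 was high, gave 1.30 (adjusted p = 0.184). Without FBS replicate 3 the same list had 7 genes up and 4 down, beside 9.17% of all genes up and 10.9% down. The rises added were Gbe1 (1.65), Mif (0.94) and Gys1 (0.78), and the falls were Car12, Lox, Zfp395 and Insig2. These added genes are named after their values were seen. The 4 down are near the share of all genes that fell, and the 7 up are above the share that rose. Several genes of this list are also known targets of other pathways, such as Angptl4 of the PPAR receptors. Pdk4, from the list of glycolysis and pyruvate genes, is a known PPAR target too. The part of HIF, PPAR or any other pathway in these rises was not tested.

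**Figure D5:**
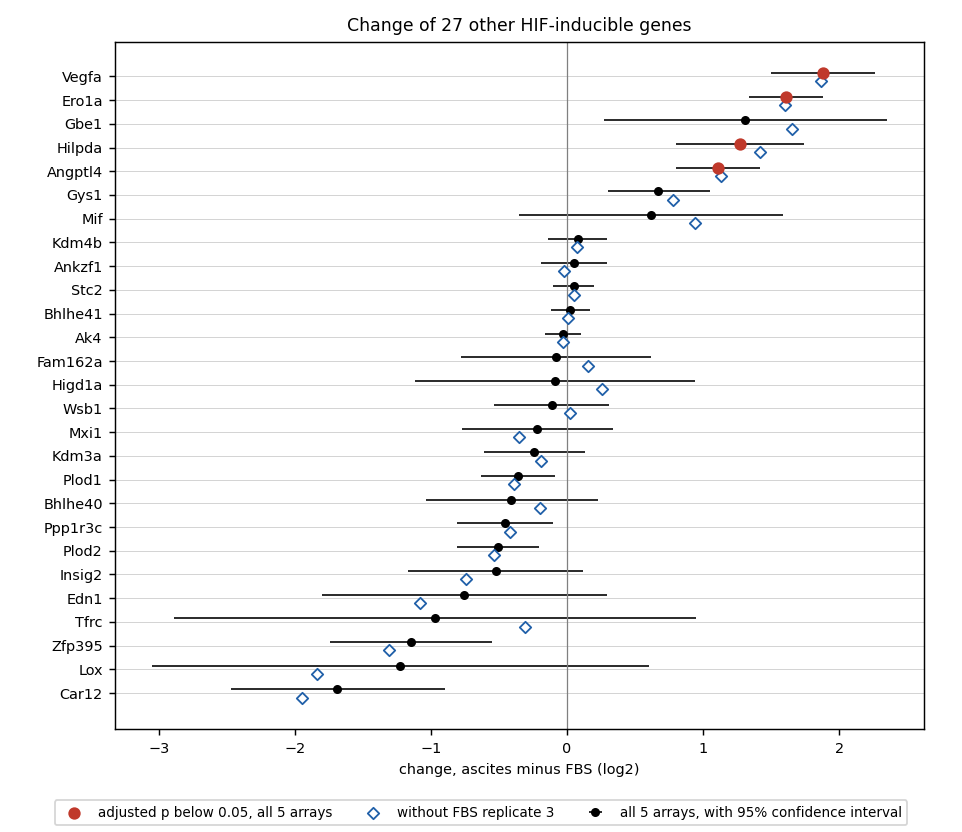
Change of 27 other HIF-inducible genes (log2, ascites minus FBS), sorted, with 95% confidence intervals over all 5 arrays (filled points, red where the adjusted p is below 0.05) and without FBS replicate 3 (open diamonds). Vegfa, Ero1a, Hilpda and Angptl4 are red on the right, and Car12 lies farthest left at -1.69 (adjusted p = 0.0553).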

How the data were processed

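Total RNA was hybridised to Affymetrix mouse arrays. The submitters' processing notes name Affymetrix Expression Console without its version, and how probes were summarised is not stated in them. Values deposited by the authors are log2 signals as judged from their range, 1 per probe set, with medians of 7.40 to 7.47 per array, and were used as given. They carry no detection call. The means per array were nearly equal, at 7.524 to 7.529. Had the distributions of the values been equalised before deposit, a change in total RNA would not show.

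Of 22690 probe sets, 20393 were annotated to 1 gene by the platform annotation, 691 to several and 1555 were unnamed; 13 of 64 control probe sets carry a gene name and were kept. Each of 12394 genes was represented by its brightest probe set. Symbols were checked through Entrez identifiers in a RefSeq table (GRCm38.p6), where 20364 probe sets matched and 0 symbols changed.

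The comparison used R 4.3.3 and its package limma 3.58.1 (lmFit, eBayes, two-sided, no covariate; 3 residual and 1.33 prior degrees of freedom), adjusted by the Benjamini-Hochberg method, and tested on simulated data. Alternatives were the mean of all probe sets, leaving out the dimmest 25% of genes, quantile normalization, a variance trend, array weights, a replicate block, averaging FBS replicates 1 and 2, and leaving out each array. All members are described, and of the other lists the genes past the threshold, at most 4 with the largest change, or the gene with the smallest p. Members, lists and rules were chosen with earlier results of these data known. The number of arrays limits the precision.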

Additional observations from a re-analysis of the deposited data

How the results depend on the processing

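The 654 calls among all genes, and the 2 among members, became 2612 and 11 (2 up, 9 down) with array weights. They became 0 and 0 with FBS replicates 1 and 2 averaged as 1 sample (2128 genes and 10 members at an unadjusted p below 0.05 in limma), and 0 and 0 with the replicate block (1892 and 7). Leaving out 1 array gave 0 to 2494 genes and 0 to 14 members, above 0 only without FBS replicate 3. Members called were 4, all down, with the mean of all probe sets, without the dimmest 25% of genes and with quantile normalization, where Pfkm and Slc16a1 joined Egln3 and Aldoc. Deviations from the group means correlated at 0.0305 for replicate number 2 and 0.043 for number 3. With 2 ascites arrays the ascites deviations mirror each other, and FBS replicates 1 and 2 nearly coincide. The 2 correlations are thus not independent, and they cannot settle whether replicate numbers pair the arrays. Under the block the adjusted p of Egln3 and of Aldoc was 0.267.

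Over 439 recomputed changes of members, 27 changed sign, all of them of members not called with all arrays. With array weights these were Slc2a1 (0.32), Aldoa (0.24), Gapdh (0.03), Pgk1 (0.06) and Hif1a (0.08). Under the replicate block they were Pgam1 (-0.04), P4ha1 (-0.01) and P4ha2 (-0.04), and with FBS replicates 1 and 2 averaged Pgam1 (-0.06) and P4ha2 (-0.04). Averaging probe sets gave Hif1a 0.01. Other probe sets gave Pfkp 0.15, Gapdh 0.01, Pfkfb3 0.19, Hif1a 0.19 and Arnt 0.13. Leaving out 1 array gave ranges of -0.24 to 0.35 for Slc2a1, -0.24 to 0.26 for Aldoa, -0.04 to 0.03 for Gapdh, -0.20 to 0.07 for Pgk1, -0.07 to 0.37 for Pgam1, -0.13 to 0.08 for Hif1a and -0.04 to 0.59 for P4ha2. The cause was not tested. The rises of Vegfa, Ero1a, Angptl4, Hilpda and Pdk4 kept their sign in every alternative. With no background call, dim members such as Car9, Adm and Epas1 cannot be shown to be present or absent.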
